A study of Mus musculus with 18 samples.

Results

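The sites described here are recombination hotspots of mouse spermatocytes that carried much H3K36me3 for their amount of H3K4me3 in animals lacking Ewsr1 in the germ line. They were chosen from the list of H3K4me3 intervals that B6 and Ewsr1 CKO share, by the ratio (H3K36me3 + 0.1 RPM)/(H3K4me3 + 0.1 RPM) in Ewsr1 CKO, where RPM is the deposited read number scaled to library size. Of 5468 distinct autosomal intervals, out of 5567 in all, 547 made up the top 10% of this ratio, and 495 of the 547 shared at least 1 bp with a row of the authors' list of DMC1 sites. These 495 sites, on 495 different DMC1 rows, are called H3K36me3-rich sites below. They are set beside the 3979 intervals with a DMC1 row in the middle 80% of the ratio, and 1 of the 495 shares its DMC1 row with such an interval. The mark ratio was measured in the mutant, so the selection describes Ewsr1 CKO chromatin, and the marks of B6 were not analysed here.

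The series measured DMC1, H3K4me3 and H3K36me3 by ChIP-seq in spermatocytes taken 14 days after birth. Columns of 5 groups, each of 2 samples, were used: DMC1 in C57BL/6J (B6), in Ewsr1 CKO and in mice heterozygous for Prdm9 (Prdm9 het), and both histone marks in Ewsr1 CKO. In Ewsr1 CKO the gene was removed by Stra8-iCre, a recombinase driven by a promoter that is active in male germ cells, and the B6 group is a plain inbred strain with no Cre named. The remaining 8 of the 18 samples were not analysed here. Each column gives 1 value per group and site, and the sources used here do not state whether it joins both samples or holds 1 of them. No difference below could therefore be set against the spread between animals, and no test between genotypes was run. In these bulk samples fewer cells with DMC1 and less DMC1 per cell cannot be told apart.

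PRDM9 is a zinc finger methyltransferase that binds DNA at hotspots and places both H3K4me3 and H3K36me3 on the nucleosomes there. SPO11 then cuts the DNA at some of these sites, and DMC1 is the meiotic recombinase that coats the resected single strands and searches the homologous chromosome for a partner. H3K36me3 has a second source: SETD2, which travels with RNA polymerase II, places it along the bodies of transcribed genes, away from their promoters. EWSR1 is an RNA-binding protein, which the title of the series ties to PRDM9-dependent methylation and to the chromosome axis, the protein core along which meiotic chromatin loops are arranged.

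A whole RefSeq promoter window, which runs from 250 bases before to 50 bases after a gene's start, lay inside 2 of the H3K36me3-rich sites. The promoter table used here has entries of known strand for 17492 of 21900 protein-coding genes and lacks 1 autosome, so such counts are lower limits. Over the 389 H3K36me3-rich sites whose host gene has an entry the share was 0.514%, against 14 of 1723 middle sites (0.813%) and 2 of 96 sites in the lowest 10% of the ratio (2.08%). The 2 windows are printed because they are the promoter sequence that was found inside the sites, in RefSeq's letters for GRCm38.p6, 5′ to 3′ on the strand of the promoter, with CG dinucleotides in capitals. The first is at chr3:94983938-94984237 on the minus strand, inside Pi4kb, a phosphatidylinositol kinase gene, and the second at chr5:4077155-4077454 on the minus strand, inside Akap9, which codes for a scaffold protein of the Golgi and centrosome.
B230398E01Rik: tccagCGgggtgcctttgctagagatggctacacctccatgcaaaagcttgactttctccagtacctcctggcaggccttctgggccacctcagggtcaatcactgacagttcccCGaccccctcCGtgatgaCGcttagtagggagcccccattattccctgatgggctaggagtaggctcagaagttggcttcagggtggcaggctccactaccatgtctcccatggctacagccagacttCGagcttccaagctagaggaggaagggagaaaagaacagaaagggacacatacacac
Gm40260: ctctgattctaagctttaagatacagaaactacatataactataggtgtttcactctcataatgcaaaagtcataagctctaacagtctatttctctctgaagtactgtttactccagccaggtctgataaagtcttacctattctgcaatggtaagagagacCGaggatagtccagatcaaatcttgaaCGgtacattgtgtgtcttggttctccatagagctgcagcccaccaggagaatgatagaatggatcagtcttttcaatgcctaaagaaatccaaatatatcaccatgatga
The B230398E01Rik window had 55.7% G and C and 5 CG dinucleotides, with an observed over expected ratio of 0.216. The Gm40260 window had 38.7% G and C, 2 CG dinucleotides and a ratio of 0.179. Both ratios were below the median of 0.384 over 32851 RefSeq promoter windows, which held a median of 7 CG dinucleotides and 52.7% G and C. The site around the first window gave 79.9 RPM of DMC1 in B6, 90.8 RPM in the Ewsr1 mutant and 12.3 RPM in the Prdm9 heterozygote, and the site around the second gave 194, 236 and 60.8 RPM. In B6 the first site was near the median of the H3K36me3-rich sites, 80.9 RPM, and the second was above it.

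The selection fixed the marks, so these are given as a description. The mark ratio of the 495 sites had a median of 2.90 and ran from 2.35 to 5.65, against a median of 1.29 in the middle 80%. H3K36me3 had a median of 3.01 RPM with quartiles of 2.34 and 3.82 RPM, against 1.41 RPM in the middle sites. H3K4me3 had a median of 0.898 RPM against 1.04 RPM. The sites were thus set apart mainly by more H3K36me3, and the widths of the intervals, with medians of 1825 and 1814 bp, were nearly alike. The 3 highest ratios were in Smarca5 (5.65), the ATPase of ISWI chromatin remodelling complexes, in Npm1 (5.54), which codes for the nucleolar protein nucleophosmin, and in Mga (5.48), a MAX-binding transcription factor gene. The highest H3K36me3 values were 9.06 RPM in Tanc2, a scaffold protein of synapses, 8.16 RPM in Mbtd1, a chromatin reader, and 7.19 RPM in 9930021J03Rik. At the boundary of the top 10%, a ratio of 2.346, the 3 sites just inside were in Ubr2 (2.3467), Spred1 (2.3494) and Stk40 (2.3494). The 3 just outside were in Cast (2.3463), Kif24 (2.3457) and Nsd1 (2.3429), so the boundary falls in a continuous range.

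**Figure D1:**
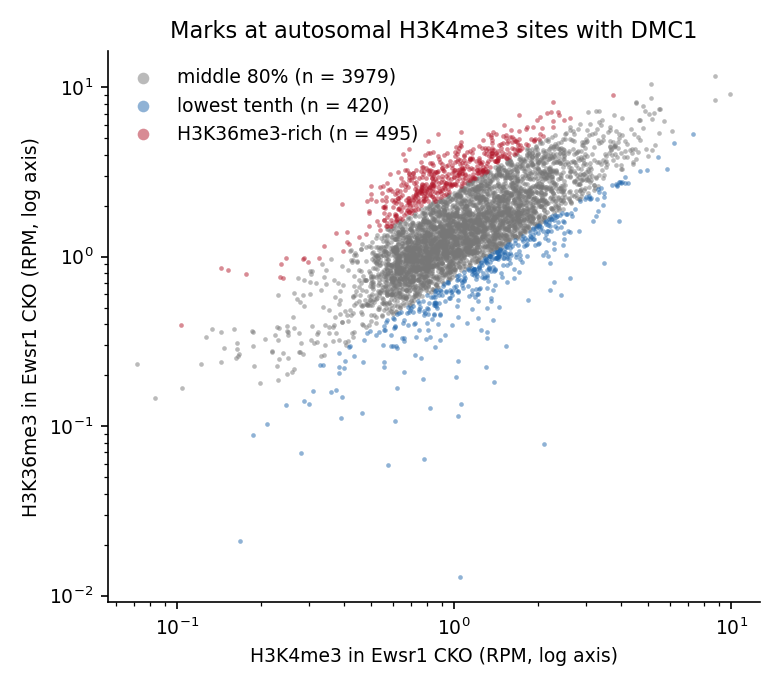
H3K36me3 against H3K4me3 in Ewsr1 CKO, both in RPM on log axes, with 1 point per autosomal site that has a DMC1 row with the H3K36me3-rich sites in red, the middle 80% of the ratio in grey and the lowest 10% in blue. The rich sites form the upper edge of the cloud, with a median of 3.01 RPM H3K36me3 against 1.41 RPM in the middle sites, and the gap follows from the selection.

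Nearly all H3K36me3-rich sites lay in gene bodies. The centre of 481 of 495 sites (97.2%, 95% Wilson interval 95.3 to 98.3) was inside a protein-coding gene of the RefSeq GRCm38.p6 annotation, from the first to the last base of the gene. In the middle 80% this held for 2149 of 3979 sites (54.0%, 52.5 to 55.6), and in the lowest 10% of the ratio for 130 of 420 (31.0%). Intervals cover counting over sites and treat the sites as independent. The share was 94.2% (49 of 52) at the sites in the top 10% without a DMC1 row, so sites of the top 10% without a DMC1 row were mostly in genes too. When all 4894 sites with a DMC1 row were ordered in deciles of the mark ratio, the share in genes was 31.0% in the lowest decile, 46.0% in the fifth and 54.7% in the seventh. It was 69.1%, 84.0% and 97.1% in the last 3 deciles, where the steps were largest. The annotation table gives no exons, so exon and intron positions are not reported.

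**Figure D2:**
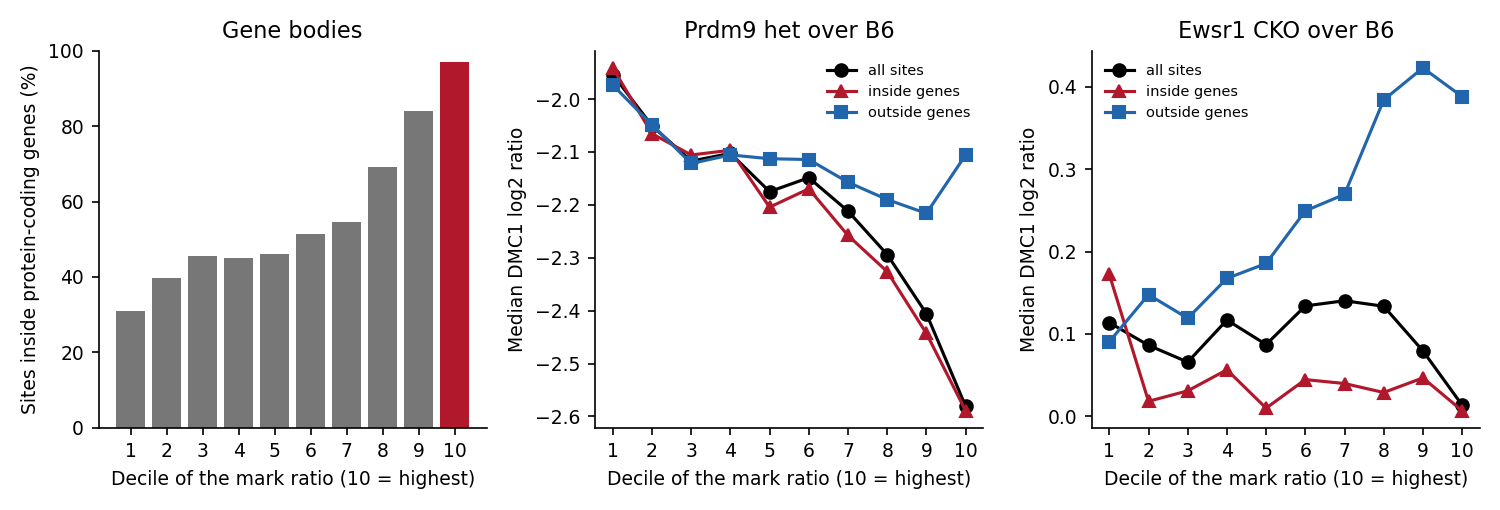
Site properties by decile of the mark ratio over the 4894 autosomal sites with a DMC1 row, with the left panel showing the share of sites inside protein-coding genes in percent, the middle panel the median DMC1 log2 ratio of Prdm9 het over B6 and the right panel that of Ewsr1 CKO over B6, each for all sites, sites inside genes and sites outside genes. From the lowest to the highest decile the share in genes goes from 31.0% to 97.1% and the middle panel from -1.95 to -2.58, and the highest decile outside genes rests on 14 sites.

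Within genes the H3K36me3-rich sites were sparse near the start. Strand was known for the host gene of 389 of the 481 sites. With the gene divided into 3 equal terciles, 76 of the 389 (19.5%, Wilson interval 15.9 to 23.8) were in the 5′ tercile of the gene and 157 (40.4%, 35.6 to 45.3) in the 3′ tercile. The middle sites in genes gave 530 of 1723 (30.8%, 28.6 to 33.0) and 630 of 1723 (36.6%, 34.3 to 38.9), so the difference was at the 5′ end, and the intervals for the 3′ tercile overlapped. In the first 10% of the gene there were 7 of 389 H3K36me3-rich sites (1.80%) and 141 of 1723 middle sites (8.18%). The median position was 59.1% of the way along the gene against 52.8%. In the lowest 10% of the ratio, 35 of 96 sites (36.5%) were in the 5′ tercile. The ratio has H3K4me3 in its denominator, and how far the selection itself shaped these positions was not tested. A listed start site lay within 1 kb of the centre at 2 of the 472 rich sites on autosomes of the promoter table (0.424%, 0.116 to 1.53) and at 45 of 3848 middle sites (1.17%, 0.875 to 1.56), intervals that overlap. Within 5 kb the counts were 25 (5.30%, 3.61 to 7.70) and 410 (10.7%, 9.72 to 11.7), and 70 of 415 (16.9%) in the lowest 10% of the ratio. Starts of genes without an entry are missed in these counts. Where the host gene has an entry, the 5 kb counts were 23 of 389 (5.91%, 3.97 to 8.72) and 210 of 1723 (12.2%, 10.7 to 13.8). Taken over sites, so that a gene counts once for each of its sites, the median host gene length was 70770 bp, against 137012 bp for the middle sites.

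**Figure D3:**
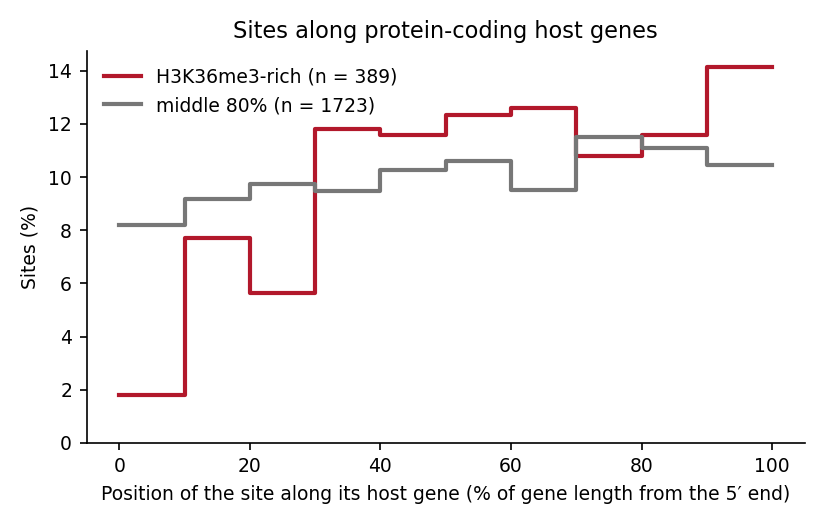
Position of the site centre along its protein-coding host gene, from the first base (0%) to the last base (100%) in the direction of transcription, as percent of the sites of each set in bins of 10%, for 389 H3K36me3-rich and 1723 middle sites with a known strand. The rich sites are sparse in the first bin (1.80% against 8.18%).

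The 481 sites in genes fell in 449 distinct host genes, of which 421 held 1 site, 25 held 2, 2 held 3 and 1 held 4. Ankfy1, which codes for an endosomal protein, held 4 sites within its 82145 bp on chromosome 11. Their B6 DMC1 values were 119, 48.9, 41.0 and 28.7 RPM in order along the gene, and their mark ratios were 3.66, 3.23, 3.65 and 3.38. The sites thus shared a gene and a similar mark ratio, while DMC1 differed among them. Htt, the gene for huntingtin, held 3 sites with 107, 101 and 195 RPM, and Vps13b, which codes for a lipid transfer protein of the Golgi, held 3 sites with 94.3, 95.6 and 71.2 RPM. These 3 genes were chosen after their values were seen.

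The other 14 sites had their centre outside protein-coding genes, and 10 of them were within 10 kb of one. For 10 of the 14 the nearest gene ended before the site, so the site lay downstream of it, for 1 the site was upstream, and for 3 the strand was not known. The nearest were 0.088 kb past the end of Ttll9, which codes for a tubulin-modifying enzyme, and 0.209 kb past Ccdc50. The farthest were 249 kb from Cadm2, which codes for a cell adhesion molecule, and 677 kb from Dtwd2. These 4 were chosen after their values were seen.

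DMC1 was not used in choosing the sites beyond the presence of a row. In B6 the 495 H3K36me3-rich sites ran from 7.07 to 1083 RPM with a median of 80.9 RPM (quartiles 39.2 and 167). In Ewsr1 CKO they ran from 5.40 to 746 RPM with a median of 82.2 RPM (44.1 and 151), and in Prdm9 het from 0.533 to 151 RPM with a median of 13.3 RPM (5.67 and 26.6). The medians and quartiles of B6 and Ewsr1 CKO were close, the highest value was lower in Ewsr1 CKO, and the Prdm9 het values were numerically lower than those of B6 at 494 of the 495 sites, in a column whose scale is not explained in the sources used here. The medians of the middle sites were 70.1, 76.8 and 14.6 RPM, and those of all 8744 autosomal DMC1 rows were 47.3, 56.0 and 9.02 RPM. The H3K36me3-rich median was thus 1.15-fold higher than the middle one in B6, 1.07-fold higher in Ewsr1 CKO and 1.10-fold lower in Prdm9 het. By autosome these differences were split, since the rich median was below the middle one on 9 of 19 in B6, on 8 in Ewsr1 CKO and on 12 in Prdm9 het. The last 2 differences turned direction with the choice of sites: Ewsr1 CKO was -0.07 (log2) with the top 5% of the ratio, and Prdm9 het was 0.08 with a mark ratio pseudocount of 1 RPM and 0.04 within quintiles of H3K4me3. Other settings made them larger, with 0.30 in Ewsr1 CKO within those quintiles and -0.49 in Prdm9 het with the top 5%. In B6 the difference was 0.21 (log2), and it was 0.011 with the top 5% and 0.42 within quintiles of H3K4me3. The H3K36me3-rich sites were on 495 of all 9132 DMC1 rows. They held 7.24% of the summed DMC1 of all rows in B6, 6.67% in Ewsr1 CKO and 6.36% in Prdm9 het. These sums include the X chromosome, which holds none of the sites. On autosomes alone they were 713518 of 867788 RPM in B6, 765437 of 867820 RPM in Ewsr1 CKO and 136064 of 153235 RPM in Prdm9 het. The shares are therefore not compared between genotypes.

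**Figure D4:**
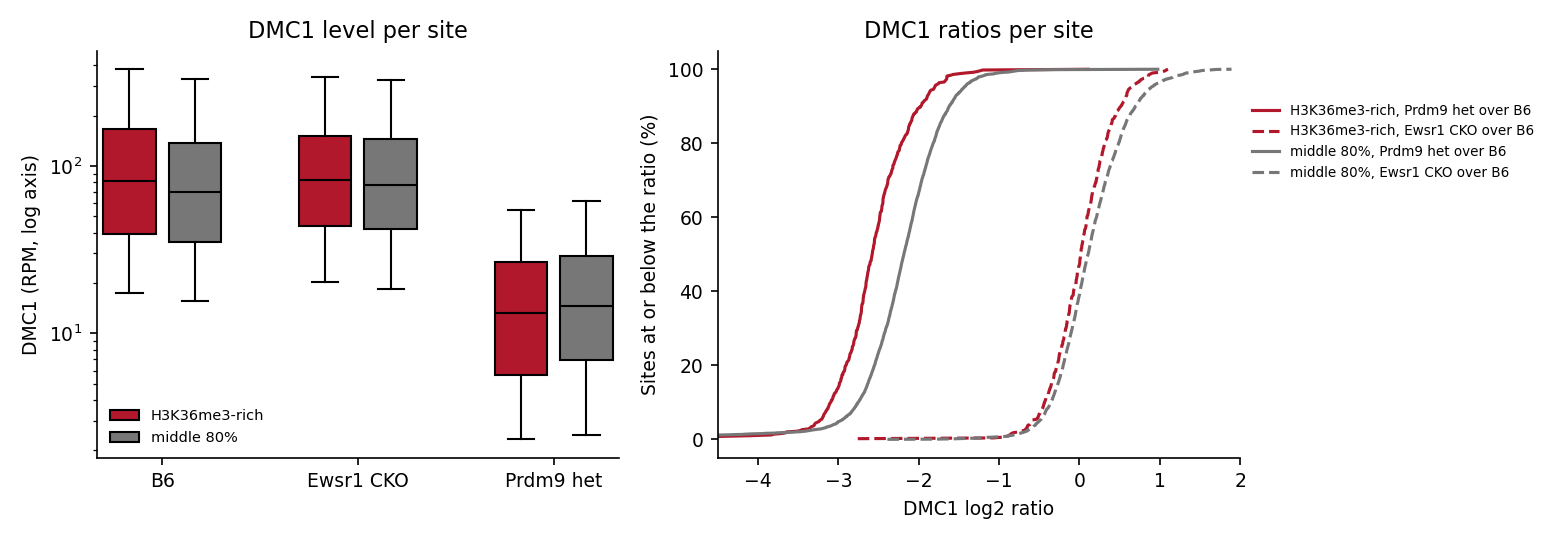
DMC1 at the H3K36me3-rich and middle sites, with the left panel showing RPM on a log axis as boxes (median and quartiles, whiskers at the 5th and 95th percentiles) and the right panel the cumulative share of sites in percent by DMC1 log2 ratio. The Prdm9 het over B6 curve of the rich sites is shifted to lower ratios (median -2.58 against -2.18), and the Ewsr1 CKO over B6 curves are closer together (0.016 against 0.11).

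The strongest sites in B6 were in Braf, a kinase of the MAPK pathway, in Pcm1, a component of centriolar satellites, and in Clk1, a kinase of splicing factors. The Braf site, at 39638948 to 39642133 on chromosome 6, had a DMC1 value of 1083 RPM in B6, against 646 RPM in the Ewsr1 mutant and 151 RPM in the heterozygote. The Pcm1 site, at 41325185 to 41328084 on chromosome 8, had 1044, 727 and 113 RPM, and the Clk1 site, at 58419017 to 58420763 on chromosome 1, had 864, 617 and 127 RPM. Their log2 ratios of Ewsr1 CKO over B6 were -0.74, -0.52 and -0.49. The sites were taken for their high B6 value, which is the denominator, and that choice itself favours low ratios. By contrast, the 3 sites with the highest mark ratio were of modest strength, with B6 values of 60.6 RPM in Smarca5, 22.4 RPM in Npm1 and 37.6 RPM in Mga. The Smarca5 site, at 80722603 to 80724725 on chromosome 8, had 92.8 RPM in the Ewsr1 mutant and 7.10 RPM in the heterozygote. The Npm1 site had 27.5 and 4.28 RPM and the Mga site 39.3 and 4.25 RPM in these genotypes, so Npm1 and Mga were both below the median of the 495 sites in all 3 columns. Among the 495 sites, B6 DMC1 had a Spearman's rho of 0.44 with H3K36me3, 0.48 with H3K4me3 and -0.09 with their ratio. The selection narrows the range of the ratio in this set. Between B6 DMC1 and the ratio, rho was 0.16 at the middle sites and 0.19 over all 4894 sites with a DMC1 row. These coefficients are over sites that share their libraries and differ in width, and they are given as a description.

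The Prdm9 het column was lower relative to B6 at the H3K36me3-rich sites than elsewhere. The DMC1 log2 ratio of Prdm9 het over B6, computed with 1 RPM added to each value, had a median of -2.58 (quartiles -2.82 and -2.30) at the 495 sites, -2.18 (-2.48 and -1.89) at the middle sites and -2.27 over all autosomal rows. The B6 column summed to 867788 RPM and the Prdm9 het column to 153235 RPM, so only the difference between sets of sites is read. That difference was -0.39 on the log2 scale, or 1.31-fold lower at the H3K36me3-rich sites. Of the 495, 380 (76.8%) were below the median of all autosomal rows, against 1681 of 3979 middle sites (42.2%). A ratio 1.5-fold or more below that median was found at 115 of the 495 (23.2%), at 282 middle sites (7.09%) and at 9.78% of all autosomal rows. A ratio 1.5-fold or more above it was found at 17 of the 495 (3.43%), at 496 middle sites (12.5%) and at 10.3% of all rows.

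The difference had the same direction on 19 of 19 autosomes, from -0.55 on chromosome 15 to -0.17 on chromosome 6. It was also present at each level of H3K4me3 and of DMC1 that was examined. Within quintiles of Ewsr1 CKO H3K4me3, from low to high, the rich minus middle difference was -0.33, -0.40, -0.37, -0.49 and -0.37. Within quintiles of Ewsr1 CKO DMC1, a column that is not in the ratio, it was -0.28, -0.43, -0.46, -0.38 and -0.36. By decile of the mark ratio the median of all sites went from -1.95 in the lowest decile through -2.17 in the fifth to -2.41 in the ninth and -2.58 in the highest. The difference was thus the end of a gradual trend over all sites, where the share in genes also changed. Within the 495 sites, where the selection narrows the mark ratio, it had a Spearman's rho of -0.09 with the log2 ratio. Over all sites with a DMC1 row this rho was -0.33.

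**Figure D5:**
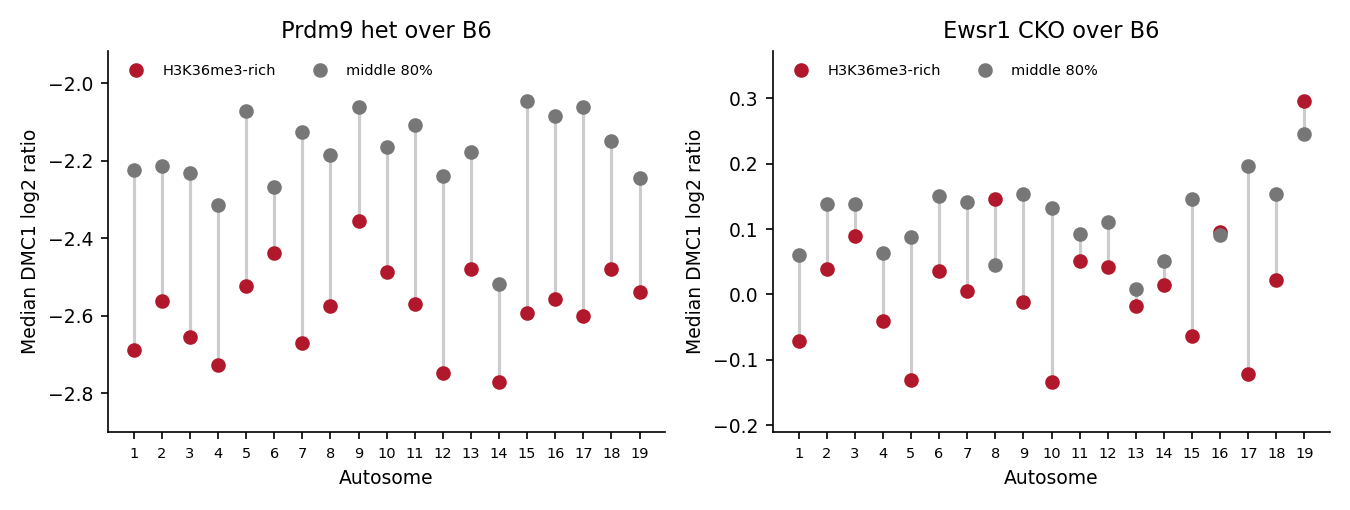
Median DMC1 log2 ratio on each autosome at the H3K36me3-rich (red) and middle (grey) sites, joined by a line, for Prdm9 het over B6 on the left and Ewsr1 CKO over B6 on the right. On the left the red point is lower on 19 of 19 autosomes, and on the right on 16 of 19 with smaller gaps.

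Gene bodies were examined separately, since nearly all H3K36me3-rich sites were in them. Inside protein-coding genes the median log2 ratio of Prdm9 het over B6 was -2.59 at 481 rich sites and -2.24 at 2149 middle sites, a difference of -0.35. Outside genes it was -2.11 at the 14 rich sites and -2.11 at 1830 middle sites. The 95% interval of the median of the 14 sites ran from -2.48 to -1.67, which is wide enough to hold a difference of the size seen inside genes. Over all sites outside genes the median was -1.97 in the lowest decile of the mark ratio and -2.19 and -2.22 in the eighth and ninth, so a trend to lower ratios was present outside genes too. Inside genes the same deciles had -1.94, -2.33 and -2.44. Middle sites that shared a host gene with an H3K36me3-rich site, 104 in number, had a median of -2.39, between the -2.59 of the rich sites and the -2.23 of 2045 middle sites in other protein-coding genes. Their median mark ratio was 1.84, above the 1.38 of the middle sites in other genes. In 80 genes that held both kinds, the rich sites were lower than the middle sites in 45, with a median difference of -0.10. In 1 of these genes, Nfib, both sites take their values from the same DMC1 row, and over the other 79 genes the median was -0.11. A difference between sets was thus small within the same gene. By position the medians were -2.63 in the 5′ tercile, -2.63 in the middle tercile and -2.56 in the 3′ tercile of the gene, and -2.61 and -2.56 in host genes shorter and longer than the median.

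Single sites ranged widely. Among sites with a mean over both columns at or above the median of the 495, the lowest ratios of Prdm9 het over B6 were in Slc4a7, a bicarbonate transporter gene, Ngly1, which codes for an enzyme that removes N-glycans, and Pik3c2a, a lipid kinase gene. The Slc4a7 site, at 14738856 to 14741127 on chromosome 14, had 502 RPM in B6, 460 RPM in the Ewsr1 mutant and 12.2 RPM in the heterozygote, which gives a log2 ratio of -5.25. The Ngly1 site, at 16269508 to 16271549 on chromosome 14, had 141, 165 and 3.26 RPM (-5.06), and the Pik3c2a site, at 116337300 to 116339034 on chromosome 7, had 200, 212 and 6.33 RPM (-4.78). At these sites B6 and Ewsr1 CKO were close, within a log2 ratio of 0.23, while the ratio of Prdm9 het over B6 was far below its median of -2.58. Ratios below -4 were found at 5 of the 495 sites (1.01%), at 62 middle sites (1.56%) and at 1.27% of all autosomal rows, so they were not more frequent among the rich sites. Chromosome 14 held 3 of the 5 and 20 of the 62. Without chromosome 14 the set difference was -0.40. With the same limit on the mean, the highest ratios were at a site 37.1 kb past Nxph2 on chromosome 2 (-1.27), in Glce, which codes for an enzyme of heparan sulfate synthesis (-1.32), and in Hnrnpu, a nuclear RNA-binding protein gene (-1.65). Over all 495 sites the highest ratio was 0.11, in Spata5 at 37560268 to 37562635 on chromosome 3, and the next was -1.20 in Tnks, which codes for a tankyrase. The Spata5 site had 41.0 RPM in Prdm9 het, B6 had 37.9 RPM and Ewsr1 CKO 44.2 RPM there. Spata5 and Tnks were named after their values were seen.

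The median ratio of Ewsr1 CKO over B6 was near 0 at the H3K36me3-rich sites and slightly lower than at the middle sites. The comparison shares its B6 column with the one above. The sums of these columns were nearly equal (867820 and 867788 RPM), so the total DMC1 signal cannot be compared between these genotypes. On autosomes alone the sums were 765437 RPM in Ewsr1 CKO and 713518 RPM in B6, a log2 ratio of 0.10, so the level of an autosomal ratio depends on the X chromosome's share of each column, and the difference between sets of autosomal sites is what is read. The log2 ratio of these columns had a median of 0.016 (quartiles -0.22 and 0.25) at the 495 sites, 0.11 at the middle sites and 0.16 over all autosomal rows. The difference of -0.09 was in the same direction on 16 of 19 autosomes, with a range from -0.32 on chromosome 17 to 0.10 on chromosome 8. Inside genes it was -0.03 (0.010 against 0.038), and in the 80 genes with both kinds of site the rich sites were lower in 34, with a median difference of 0.12. The set difference was thus smaller inside genes. Within the same gene it was small, and its median had the opposite direction. Within quintiles of Ewsr1 CKO H3K4me3, from low to high, the set difference was -0.17, -0.10, -0.18, -0.21 and -0.10. A ratio 1.5-fold or more below the median of all autosomal rows was found at 51 of 495 sites (10.3%), at 292 middle sites (7.34%) and at 6.34% of all rows, and inside genes at 10.6% and 9.54%. A ratio 1.5-fold or more above was found at 16 sites (3.23%), at 340 middle sites (8.54%) and at 11.4% of all rows. Inside genes these shares were 2.70% and 4.89%, and outside genes they were 3 of 14 rich sites (21.4%) and 12.8% of middle sites. If 1 step of the columns (0.129 RPM in B6, 0.246 RPM in Ewsr1 CKO) is 1 read, the median sampling error of the log2 ratio was 0.098, below the distance of 0.47 between the quartiles.

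Over all 495 sites the highest ratios of Ewsr1 CKO over B6 were at a site near Cadm2 (1.10), in Helz (1.08), in Lgr4 (1.07) and in Erc1 (1.04), so they were found both outside and inside protein-coding genes. Helz, Lgr4 and Erc1 were named after their values were seen. Among sites with a mean over both columns at or above the members' median, the highest were near Cadm2, Mxi1 and Nxph2. The site 249 kb past Cadm2, at 66405215 to 66407164 on chromosome 16, had 204 RPM in B6 and 439 RPM in the Ewsr1 mutant (log2 ratio 1.10). The site 2.82 kb past Mxi1 on chromosome 19 had 57.9 and 117 RPM (1.01), and the site near Nxph2 had 85.8 and 156 RPM (0.86). The median over the 14 sites outside genes was 0.39, against 0.19 at the middle sites outside genes. Over all sites outside genes this ratio was 0.09 in the lowest decile of the mark ratio, 0.19 in the fifth and 0.42 in the ninth, while inside genes it was 0.17, 0.010 and 0.047. The lowest ratio was in Fcna, the gene of the serum lectin ficolin A, at 25630854 to 25632070 on chromosome 2. DMC1 there was 519 RPM in B6, 75.9 RPM in the Ewsr1 mutant and 97.7 RPM in the heterozygote. The log2 ratio was -2.76, and its sampling error 0.085. The ratio of Ewsr1 CKO over Prdm9 het at this site was -0.36, against a median of 2.61 for the 495 sites. With the same limit on the mean, the next lowest were in Oxsr1, a stress kinase gene, with 151 and 71.2 RPM (-1.07), and in Urb1, a gene of ribosome assembly, with 231 and 122 RPM (-0.92). The 3 Htt sites had -0.59, -0.37 and -0.69, below the median of 0.016, and the 4 Ankfy1 sites had -0.15, -0.12, 0.45 and -0.12.

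The direct ratio of Ewsr1 CKO over Prdm9 het, which shares a column with each comparison above, is given beside them. Its median was 2.61 at the 495 sites, 2.32 at the middle sites and 2.46 over all autosomal rows, a set difference of 0.29 that was positive on 19 of 19 autosomes (0.02 on chromosome 10 to 0.47 on chromosome 11). A ratio 1.5-fold or more above the median of all rows was found at 71 of 495 sites (14.3%), at 341 middle sites (8.57%) and at 13.2% of all rows, so the rich sites were near the background. A ratio 1.5-fold or more below it was found at 38 sites (7.68%), at 735 middle sites (18.5%) and at 13.3% of all rows. The distance of the rich sites from the middle sites was thus larger at the low end. Among sites with a mean over both columns at or above the members' median, the lowest ratios after Fcna were in Htt (1.22) and in Exoc4, a gene of the exocyst, a vesicle tethering complex (1.28). Weaker sites in Spata5 (0.11) and Ylpm1 (0.81), named after their values were seen, were lower than these. The highest with the same limit were in Ngly1 (5.29), Slc4a7 (5.13) and Pik3c2a (4.86).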

How the data were processed

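DMC1, H3K4me3 and H3K36me3 ChIP-seq values came from a DMC1 table and an H3K4me3 table that the authors deposited, in RPM (read number scaled to library size, per the file headers), with 1 column per group. The denominator of the RPM, and whether replicates were pooled, are not given in the sources used here. The submitters' processing notes name BWA 0.5.10, Trimmomatic 0.32 and the mm10 build, with no roles. Coordinates are as deposited. Of the value columns, 5 were used and 5 were not: 1 repeats Ewsr1 CKO H3K4me3 over the DMC1 rows, and the others match no sample of the series. The inputs and Prdm9 Set-KO samples were not used. The deposited H3K4me3 table held 5787 lines, of which 220 repeated an interval and were averaged.

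The members, lists and comparisons were chosen with earlier results of these data known. For log2 ratios 1 RPM was added to both values, so changes of low sites come out too small. A site sharing bases with several DMC1 rows took the row with the longest overlap. The B6 and Ewsr1 CKO DMC1 values were whole multiples of a step in 100% of rows, within 0.01 of a step. If 1 step is 1 read, the columns hold 6747742 and 3534743 reads, and the H3K36me3-rich sites a median of 629 and 335 reads. The depth of the other columns is unknown. Sampling errors cover counting error only. Medians of sets were compared with no p-value, since the columns hold 1 value per group. Sites named by rule were the 3 highest by mark ratio, H3K36me3 and B6 DMC1, the 3 on each side of the boundary, and for each DMC1 ratio the 3 highest and lowest among members with a mean at or above the members' median. Also named were the 2 sites with a promoter window, Nfib for its shared DMC1 row, and those marked as chosen after their values were seen. Gene extents, strands and promoter sequences were those of RefSeq for GRCm38.p6, the assembly that mm10 represents. The promoter table, the source of strands and start sites, has entries of known strand for 17492 of 21900 protein-coding genes and none on chromosome 18, so counts of start sites are lower limits. The scripts that compare sets were tested on simulated data with known shifts. These simulations added 0.1 RPM instead of 1 RPM and gave the compared columns the same scale. They therefore do not cover the lower scale of the Prdm9 het column. Software was Python 3.11.15 with matplotlib 3.10.9, pandas 2.3.3, scipy 1.17.1 and numpy 2.4.6.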

Additional observations from a re-analysis of the deposited data

How the results depend on the processing

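The values are rich minus middle differences of log2 medians unless given as shares, and a value was counted as changed when it moved by more than the uncertainty of the members' median (shares: the Wilson interval). Under the alternatives, 66 values did not change by this measure, 16 moved in the same direction and 3 turned direction, of which the Prdm9 het level within quintiles of H3K4me3 moved by less than that uncertainty. The difference in Prdm9 het over B6 (-0.39) stayed between -0.42 and -0.33 over 16 settings, among them other pseudocounts, overlap rules and 1 site per gene. Scaling the columns shifts both sets nearly alike, apart from the effect of the added 1 RPM, and gave -0.399. The mean over overlapping DMC1 rows gave the same values, so these settings are no real test of stability. The difference in Prdm9 het over B6 was -0.33 for the top 20% against the middle 60% and -0.35 inside protein-coding genes. Ewsr1 CKO over B6 (-0.09) was -0.14 with a mark ratio pseudocount of 1 RPM, -0.15 within quintiles of H3K4me3 and -0.028 inside genes. Ewsr1 CKO over Prdm9 het (0.29) was 0.23 both with that pseudocount and within those quintiles. The DMC1 level in B6 (0.21) was 0.011 for the top 5%, 0.40 with the 1 RPM pseudocount and 0.42 within the quintiles. In Ewsr1 CKO (0.10) it was -0.066 for the top 5% and 0.30 within the quintiles. In Prdm9 het (-0.14) it was -0.49 for the top 5%, -0.36 with no pseudocount in the mark ratio, 0.081 with 1 RPM and 0.041 within the quintiles. The cause of these shifts was not tested. The share inside genes (97.2%) was 98.4% for the top 5% and 90.3% for the top 20%, and the share near a start site (0.424%) was 5.30% with the wider 5 kb window. The settings that kept sites inside genes, took 1 site per gene, used quintiles of the remaining DMC1 column, kept host genes of the promoter table or left out chromosome 14 were added after seeing the data.

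No paired analysis was possible because each group has a single column with no replicate number, and no replicate was left out for that reason. Sites are not replicates, so the medians describe the authors' columns and not the animals. The depth behind the heterozygote's DMC1 and behind both marks is unknown, so ratios that hold them have no sampling error.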

Other observations

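Over all autosomes the H3K36me3-rich sites were 495 of 4894 sites with a DMC1 row. By chromosome this share ran from 4.63% on chromosome 15 (10 rich sites) to 14.5% on chromosome 18 (23 rich sites). These are the extremes of 19 autosomes, and whether the spread exceeds counting variation was not tested. Of the 495 sites, 33 (6.67%, Wilson interval 4.79 to 9.21) lay within 10 Mb of the first DMC1 row of their chromosome and 27 (5.45%, 3.78 to 7.82) within 10 Mb of the last, against 5.88% and 7.72% of the middle sites. The intervals contain the middle values, so a difference in position at either end was not detectable at this number of sites.

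DMC1 in Ewsr1 CKO per unit of each mark in Ewsr1 CKO went in opposite directions. Both measures hold the same DMC1 column, so the gap between them follows from the selection by the mark ratio. The median log2 of DMC1 per H3K4me3 was 6.32 at the H3K36me3-rich sites and 6.05 at the middle sites, and per H3K36me3 it was 4.76 and 5.68. Inside protein-coding genes the differences were 0.45 and -0.61.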
